A study of Homo sapiens with 12 samples.

Results

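A set of 10 interferon-stimulated genes, whose products sense double-stranded RNA or restrict viruses, was followed in A375 cells. The set holds ADAR, BST2, CMPK2, DDX58, DDX60, DDX60L, DHX58, DTX3L, EIF2AK2 and EPSTI1. They were listed by symbol and role, with earlier results of these data known, and all 10 were found among the 4918 genes analysed (symbols A1BG to FAM46B). A375 is an established human melanoma line. Total RNA was sequenced from 12 samples, 3 in each of 4 groups: controls labelled as untreated, cells given SB-3CT (a small-molecule inhibitor of the matrix metalloproteinases MMP2 and MMP9), cells given interferon gamma (IFNγ), and cells given both agents (the combination), all collected at 24 h. The protocol also speaks of a vehicle, and the labels do not say which samples received it. The doses used for these samples were not given in the sources used here. The labels do not say whether samples of a group came from separate cultures. In the study, the legend of the figure showing these data and other assays states that all experiments were independently repeated 3 times. It does not say whether the sequenced samples of a group were those repeats. The p-values below thus measure the spread between these samples, part of which may be technical.

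Interferons induce a programme of genes that make a cell hostile to viruses. Known DNA elements through which interferons act on genes are gamma-activated sites (GAS), used mainly by IFNγ, and interferon-stimulated response elements (ISRE), used mainly by type I interferons. IRF1 also binds ISRE sequences, and many genes of the programme respond to either kind of interferon. In tumour cells the same programme accompanies the induction of PD-L1 and of antigen presentation by IFNγ.

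Every one of the 10 genes rose with IFNγ. All 10 had an adjusted p under 0.05 against control (limma, Benjamini-Hochberg over the 4918 genes), where 8.46% of all genes were called higher. The 3 IFNγ samples also lay above all 3 controls for all 10 genes, which was so for 15.0% of all genes. The median rise of the 10 was 2.27 on the log2(FPKM + 1) scale, the scale of the deposited values, and over the 3177 genes averaging 1 FPKM or more the median was -0.04. FPKM is the number of fragments per kilobase of transcript, scaled to a sample's total, so levels can be set side by side between genes. In these bulk samples, more cells that express a gene and more RNA of it per cell cannot be told apart. The plot of levels by sample shows the groups with IFNγ above those without it for every gene, by a wide margin except for EIF2AK2, whose combination samples lay close to the controls.

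**Figure D1:**
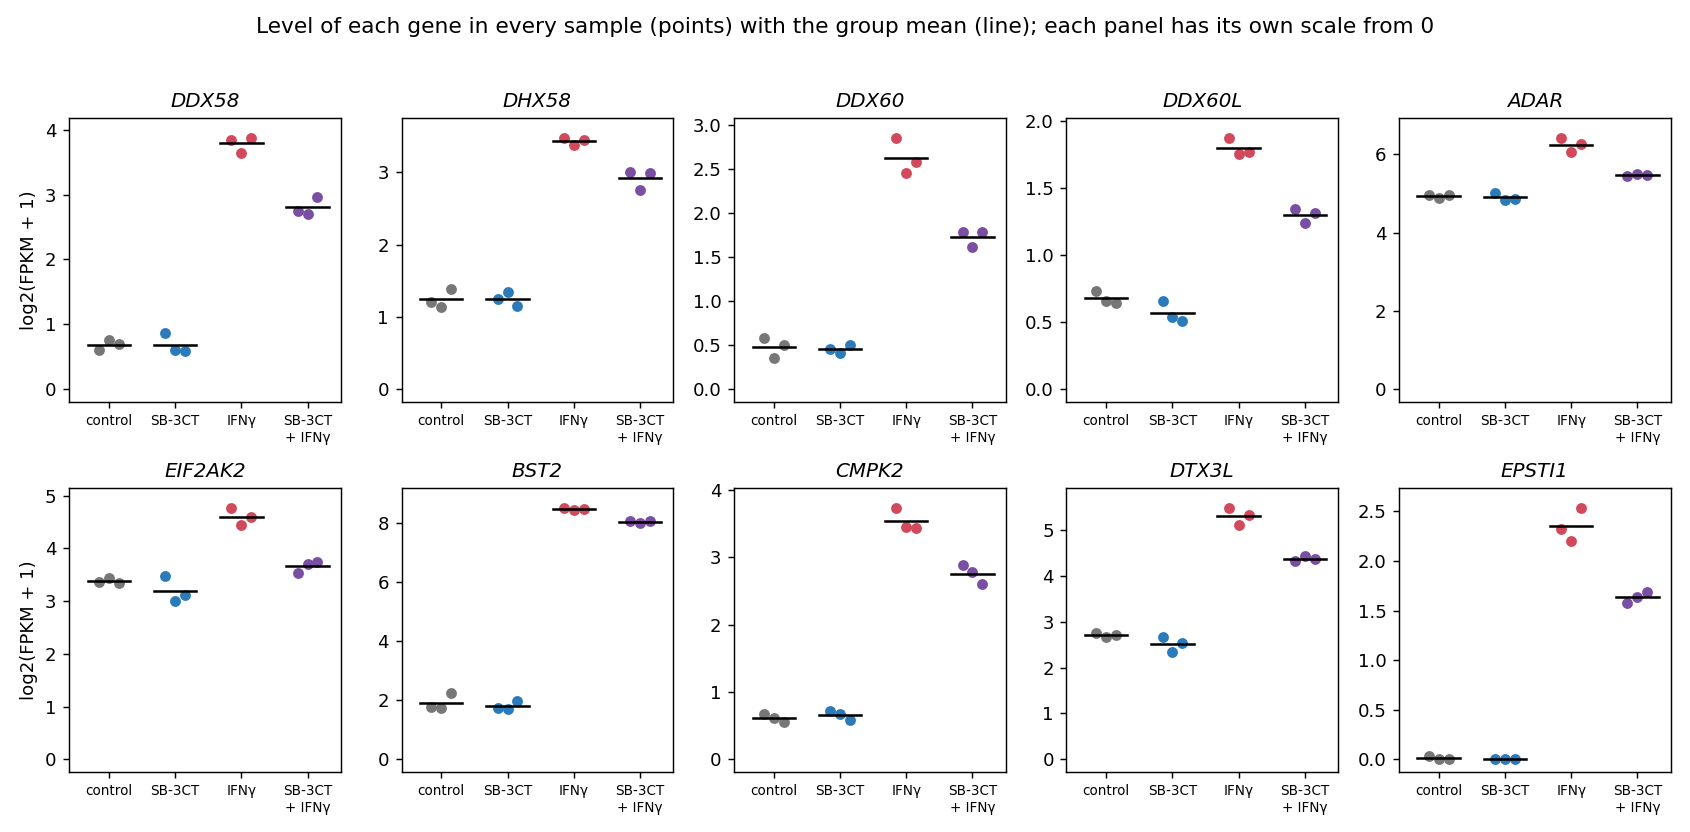
Each panel plots 1 gene, with log2(FPKM + 1) on the vertical axis and the 4 groups on the horizontal axis; points are the 3 samples of a group and lines are their means. IFNγ samples are the highest in all 10 panels, control and SB-3CT samples lie together at the bottom, and the samples with both agents lie between.

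Promoter sequence was examined because the genes rose together. In the RefSeq windows from 250 bases before to 50 bases after each annotated start (GRCh38.p14), 9 of the 10 genes had an entry, DHX58 being the exception. Windows were searched on both strands for an ISRE core, GAAANNGAAA, and a GAS core, TTCNNNGAA. An ISRE core was found for 6 of the 9 genes, whereas 4.38% of the 27305 genes of the table hold one in any of their windows. A GAS core was found for 3 of the 9, against 9.38% of all genes. The windows of ADAR, CMPK2 and DDX58 held neither set of letters. A match is a description of the letters and not evidence of binding, and the search covers these windows only.

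The 6 windows with an ISRE core are printed from 150 bases before to 20 bases after the start, 5′ to 3′ on the strand of the gene, to show where the matches lie; capitals mark ISRE and GAS cores, and coordinates are those of GRCh38.p14.
DDX60 (chr4:168318733-168318902, minus strand): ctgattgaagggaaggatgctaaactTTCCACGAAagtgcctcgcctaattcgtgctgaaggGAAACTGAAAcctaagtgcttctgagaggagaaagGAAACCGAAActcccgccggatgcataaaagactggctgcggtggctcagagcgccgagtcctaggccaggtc
DDX60L (chr4:168480473-168480642, minus strand): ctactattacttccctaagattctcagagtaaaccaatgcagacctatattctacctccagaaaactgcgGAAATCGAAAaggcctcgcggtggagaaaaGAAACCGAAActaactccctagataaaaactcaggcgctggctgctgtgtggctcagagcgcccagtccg
EIF2AK2 (chr2:37156961-37157130, minus strand): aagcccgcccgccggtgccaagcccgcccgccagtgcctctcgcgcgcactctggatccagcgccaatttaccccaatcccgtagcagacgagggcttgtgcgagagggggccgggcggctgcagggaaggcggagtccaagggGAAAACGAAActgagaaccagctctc
BST2 (chr19:17405611-17405780, minus strand): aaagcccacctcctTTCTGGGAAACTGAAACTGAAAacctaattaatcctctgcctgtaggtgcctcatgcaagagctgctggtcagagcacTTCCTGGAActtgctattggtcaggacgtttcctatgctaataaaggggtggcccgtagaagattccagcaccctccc
DTX3L (chr3:122564188-122564357, plus strand): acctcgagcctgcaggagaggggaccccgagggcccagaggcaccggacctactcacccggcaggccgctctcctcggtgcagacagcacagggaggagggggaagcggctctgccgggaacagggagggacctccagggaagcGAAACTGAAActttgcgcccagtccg
EPSTI1 (chr13:42992222-42992391, minus strand): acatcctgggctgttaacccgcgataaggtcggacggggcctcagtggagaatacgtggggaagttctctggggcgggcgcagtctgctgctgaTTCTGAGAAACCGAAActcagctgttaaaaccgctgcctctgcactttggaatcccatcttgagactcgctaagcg

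Counted from the start base as 1, with no position 0, the paralogous helicase genes DDX60 and DDX60L each had 2 ISRE cores in similar places, at -88 and -53 in DDX60 and at -80 and -50 in DDX60L. BST2 carried 2 overlapping ISRE cores from -130 to -115, and the first of them also overlapped a GAS core that began at -136. A further GAS core of BST2 began at -58, and that of DDX60 began at -124. In EPSTI1 the ISRE core at -50 overlapped a GAS core at -56. The ISRE cores of EIF2AK2 and DTX3L spanned the annotated start, from -6 to 4. All of the ISRE cores read on the strand of their gene.

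**Figure D2:**
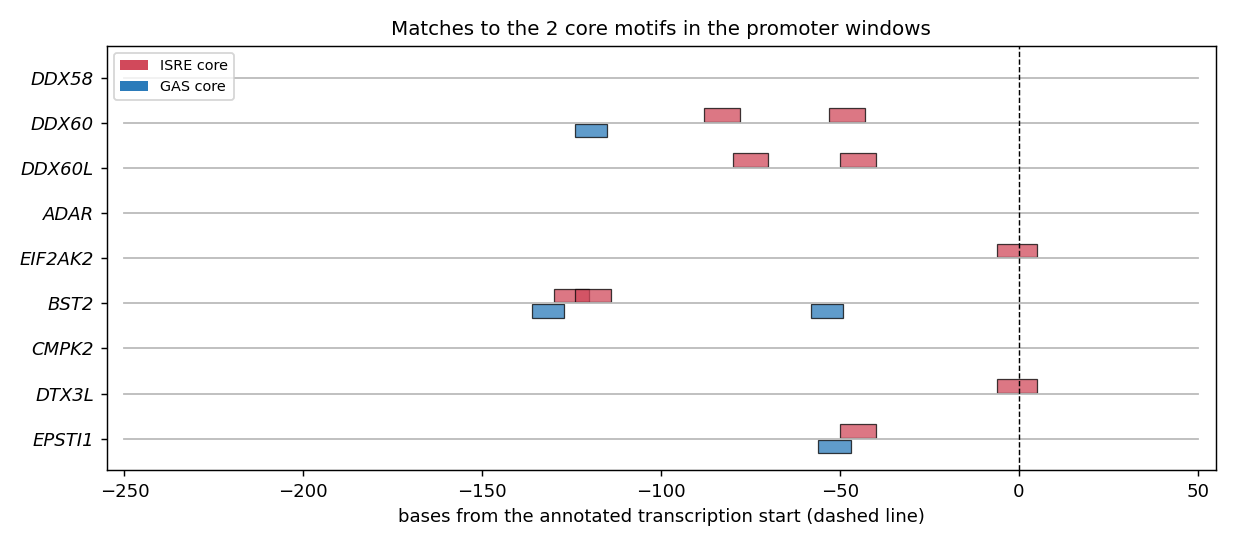
Horizontal lines are the promoter windows of the 9 genes, and the horizontal axis gives the distance in bases from the annotated transcription start (dashed); red boxes are ISRE cores and blue boxes are GAS cores. The 6 genes with an ISRE core have it within 130 bases before the start or across it, and the lines of DDX58, ADAR and CMPK2 carry no box.

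The RIG-I family of cytosolic sensors was represented by DDX58 and DHX58. DDX58 (current symbol RIGI; hg19 chromosome 9, 32455300 to 32526206, minus strand, 18 exons) encodes RIG-I, a helicase that binds viral RNA with 5′-triphosphates and signals through MAVS. Its FPKM was 0.512, 0.694 and 0.613 for controls, 0.820, 0.516 and 0.503 for SB-3CT, 13.4, 11.5 and 13.6 for IFNγ and 5.72, 5.52 and 6.80 for the combination. The control and SB-3CT samples overlapped, every sample with IFNγ was above them, and the combination samples all lay below the samples with IFNγ alone. The mean FPKM rose 21.2-fold with IFNγ (standard error 2.15). On the log2(FPKM + 1) scale, where the added 1 makes the change of a low gene smaller, the rise was 3.11 ± 0.09 (SE, adjusted p = 5.76e-06, limma). Adding SB-3CT to IFNγ gave a log2 change of -0.98 ± 0.10 (SE, adjusted p = 0.00207), the largest fall among the 10 genes on the deposited scale. Another gene model on the same strand, ENSG00000288684, shares 4471 exonic bases with DDX58. The deposited value may divide reads between them if the authors' annotation held that model, which is not given in the sources used here.

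DHX58 (chromosome 17, 40253422 to 40264732, minus strand) encodes LGP2, a relative of RIG-I that binds RNA but lacks the signalling domains. Its FPKM was 1.31, 1.21 and 1.61 for controls, 1.37, 1.53 and 1.22 for SB-3CT, 10.1, 9.41 and 9.94 for IFNγ and 7.01, 5.78 and 6.93 for the combination. It was thus more abundant than DDX58 without IFNγ and less abundant with IFNγ alone. The rise with IFNγ was 2.19 ± 0.08 (SE, adjusted p = 1.85e-05) and the change when SB-3CT was added to IFNγ was -0.52 ± 0.08 (SE, adjusted p = 0.00392). This fall had an adjusted p of 0.0625 after quantile normalization, at a log2 change of -0.24.

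DDX60 and DDX60L are neighbours on chromosome 4 (169137442 to 169240034 and 169277886 to 169458937, both on the minus strand) and encode related helicases. DDX60 is an interferon-induced antiviral protein, and it has been linked to RIG-I signalling. Being paralogs, they may share reads. DDX60 was 0.492, 0.272 and 0.415 FPKM for controls, 0.374, 0.329 and 0.417 for SB-3CT, 6.19, 4.50 and 4.99 for IFNγ and 2.44, 2.06 and 2.46 for the combination. DDX60L was 0.655, 0.582 and 0.554 FPKM for controls, 0.576, 0.451 and 0.425 for SB-3CT, 2.65, 2.35 and 2.41 for IFNγ and 1.53, 1.36 and 1.47 for the combination. DDX60L was the higher of the pair without IFNγ and the lower of the pair with it, in all samples. The mean FPKM of DDX60 rose 13.3-fold (SE 2.52) and that of DDX60L rose 4.14-fold (SE 0.261), and the changes on the log2(FPKM + 1) scale were 2.15 ± 0.12 and 1.12 ± 0.06 (SE, adjusted p = 0.00012 for both). When SB-3CT was added to IFNγ, DDX60 changed by -0.90 ± 0.12 (SE, adjusted p = 0.00246) and DDX60L by -0.50 ± 0.08 (SE, adjusted p = 0.00350). For DDX60L the fall was -0.23 with an adjusted p of 0.0509 once the trend with transcript length had been removed.

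ADAR and EIF2AK2, which encode enzymes that bind double-stranded RNA, had the highest control levels of the 10. ADAR (chromosome 1, 154554171 to 154600489, minus strand, 15 exons) encodes ADAR1, which edits adenosine to inosine and keeps cellular RNA from being sensed as foreign. Its FPKM was 30.0, 28.7 and 29.9 for controls, 31.3, 27.4 and 28.1 for SB-3CT, 84.2, 66.1 and 75.4 for IFNγ and 42.7, 44.2 and 43.7 for the combination. The 3 combination samples were close to each other, above every control and below every IFNγ sample. ADAR rose by 1.31 ± 0.09 with IFNγ (SE, adjusted p = 0.00026) and changed by -0.77 ± 0.08 when SB-3CT was added to IFNγ (SE, adjusted p = 0.00207).

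EIF2AK2 (chromosome 2, 37326353 to 37384665, minus strand, 17 exons) encodes PKR, the kinase that halts translation through eIF2α when it binds double-stranded RNA. Its FPKM was 9.34, 9.86 and 9.22 for controls, 10.2, 6.98 and 7.69 for SB-3CT, 26.1, 20.9 and 23.1 for IFNγ and 10.6, 12.1 and 12.5 for the combination. With both agents the samples were thus near the control level. IFNγ raised EIF2AK2 by 1.21 ± 0.08 (SE, adjusted p = 0.000324), and SB-3CT added to IFNγ changed it by -0.93 ± 0.09 (SE, adjusted p = 0.00207). The combination remained 0.28 ± 0.07 above control (SE, adjusted p = 0.0151) and 0.47 ± 0.13 above SB-3CT alone (SE, adjusted p = 0.0346). Both of these small differences depended on the fit. Against SB-3CT the adjusted p was 0.0912 with the replicate number as a block. When 1 sample was left out it was between 0.0091 and 0.113, and it passed the threshold only without SB-3CT replicate 1. Against control it was 0.0670 with all 4 groups in 1 fit, 0.0523 without control replicate 1, 0.0563 without control replicate 3 and 0.0528 without replicate 2 of the combination. Its size against control was 0.54 after median-ratio scaling, 0.47 after quantile normalization and 0.64 with the length trend removed. EIF2AK2 shares 401 exonic bases with a processed pseudogene, ARL14EPP1, and 35 with GPATCH11, both on the opposite strand, and whether the counting used strand is not given in the sources used here.

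Of the effectors outside RNA sensing, BST2 had the largest response. BST2 (chromosome 19, 17513748 to 17516439, minus strand, 5 exons) encodes tetherin, a membrane protein that holds budding enveloped viruses on the cell surface. Its FPKM was 2.44, 2.35 and 3.68 for controls, 2.31, 2.27 and 2.93 for SB-3CT, 358, 344 and 357 for IFNγ and 268, 252 and 266 for the combination. The mean FPKM rose 125-fold with IFNγ (SE 19.1), and the change of 6.55 on the log2(FPKM + 1) scale (SE 0.13, adjusted p = 1.57e-06) ranked 1 of 4918. SB-3CT added to IFNγ changed it by -0.43 ± 0.05 (SE, adjusted p = 0.00222), the smallest fall of the 10 on the deposited scale. After median-ratio scaling it was again the smallest, at -0.19 with an adjusted p of 0.0445, but after quantile normalization or removal of the length trend the smallest was that of DDX60L (-0.24 and -0.23).

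CMPK2 (chromosome 2, 6980701 to 7006766, minus strand, 5 exons) encodes a mitochondrial nucleoside monophosphate kinase that is induced by interferon together with its neighbour RSAD2. Its FPKM was 0.591, 0.535 and 0.472 for controls, 0.652, 0.605 and 0.497 for SB-3CT, 12.3, 10.01 and 9.86 for IFNγ and 6.41, 5.87 and 5.06 for the combination. The groups without IFNγ overlapped and the groups with it did not. The rise with IFNγ was 2.93 ± 0.10 (SE, adjusted p = 1.22e-05) and the change with SB-3CT added was -0.79 ± 0.11 (SE, adjusted p = 0.00270). CMPK2 shares 351 exonic bases with RSAD2 on the opposite strand. Reads from that stretch cannot be told apart without strand, and RSAD2 was not analysed here.

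DTX3L (chromosome 3, 122283185 to 122294050, plus strand, 5 exons) encodes a ubiquitin ligase that works with PARP9 in the interferon response and in DNA repair. Its FPKM was 5.75, 5.43 and 5.60 for controls, 5.33, 4.10 and 4.80 for SB-3CT, 43.7, 33.6 and 39.4 for IFNγ and 18.9, 20.6 and 19.9 for the combination. Here alone among the 10 genes, all SB-3CT samples lay below all controls, which was so for 19.7% of all genes. IFNγ raised DTX3L by 2.59 ± 0.10 (SE, adjusted p = 1.7e-05), and SB-3CT added to IFNγ changed it by -0.93 ± 0.09 (SE, adjusted p = 0.00207). DTX3L shares 139 exonic bases with PARP9 on the opposite strand. EPSTI1 (chromosome 13, 43460524 to 43566407, minus strand, 11 exons) encodes an interferon-responsive protein first described in epithelial-stromal interaction. It was listed at 0 in controls 2 and 3 and in the 3 SB-3CT samples, and at 0.0208 FPKM in control 1. With IFNγ it was 3.99, 3.60 and 4.78 FPKM, and with both agents 1.98, 2.11 and 2.23. No fold is given against groups listed at 0. The difference from control on the log2(FPKM + 1) scale was 2.34 ± 0.09 (SE, adjusted p = 2.03e-05), and SB-3CT added to IFNγ changed EPSTI1 by -0.72 ± 0.11 (SE, adjusted p = 0.00299).

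The size of a rise from a low level depended on the pseudocount. With 0.1 added in place of 1, the log2 change with IFNγ was 5.30 for EPSTI1, 3.45 for DDX60 and 1.89 for DDX60L, each over 1.5 times the value given above. The rises over SB-3CT alone moved in the same way, to 4.46 for EPSTI1, 2.35 for DDX60 and 1.42 for DDX60L. All of these rises passed the threshold with either pseudocount.

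SB-3CT without IFNγ left none of the 10 genes past the threshold. In limma 0 of 10 had an adjusted p under 0.05, and 0 had an unadjusted p under 0.05, where 12.2% of all genes were called in either direction. The log2 changes ran from -0.20 for DTX3L (95% interval -0.42 to 0.01, adjusted p = 0.186) to 0.05 for CMPK2 (-0.09 to 0.18). The widest intervals were those of BST2 (-0.46 to 0.24) and EIF2AK2 (-0.47 to 0.09), so a change within those bounds could not be told from none here. SB-3CT replicate 1 was the highest of its group for EIF2AK2, and without it EIF2AK2 was lower than control by a log2 change of -0.33 (adjusted p = 0.0273). For genes near or below 1 FPKM the log2(FPKM + 1) scale compresses changes, which applies to CMPK2, DDX58, DDX60, DDX60L, DHX58 and EPSTI1 in the groups without IFNγ.

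Under IFNγ, all 10 genes were lower with SB-3CT. Each had lower values in the combination than under IFNγ alone at an adjusted p under 0.05 (limma), from -0.43 for BST2 to -0.98 for DDX58, and the median change was -0.78. This share has to be read against a wide shift: 31.5% of all genes were called lower, and genes averaging 1 FPKM or more had a median of -0.20. With only genes averaging 1 FPKM or more tested, 1493 of 3145 were called lower. In all 10 genes the 3 combination samples lay below the 3 IFNγ samples, which held for 39.6% of all genes. Median-ratio scaling brings the median over genes averaging 1 FPKM or more to 0.00. Over all genes it gave 763 higher and 811 lower in place of 315 higher and 1547 lower. All 10 genes stayed lower and past the threshold under that scaling, at -0.19 (BST2) to -0.77 (DDX58). Between 3 samples and 3, an exact two-sided permutation test of 1 gene cannot go below 0.1, and it gave 0.1 for each of the 10.

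**Figure D3:**
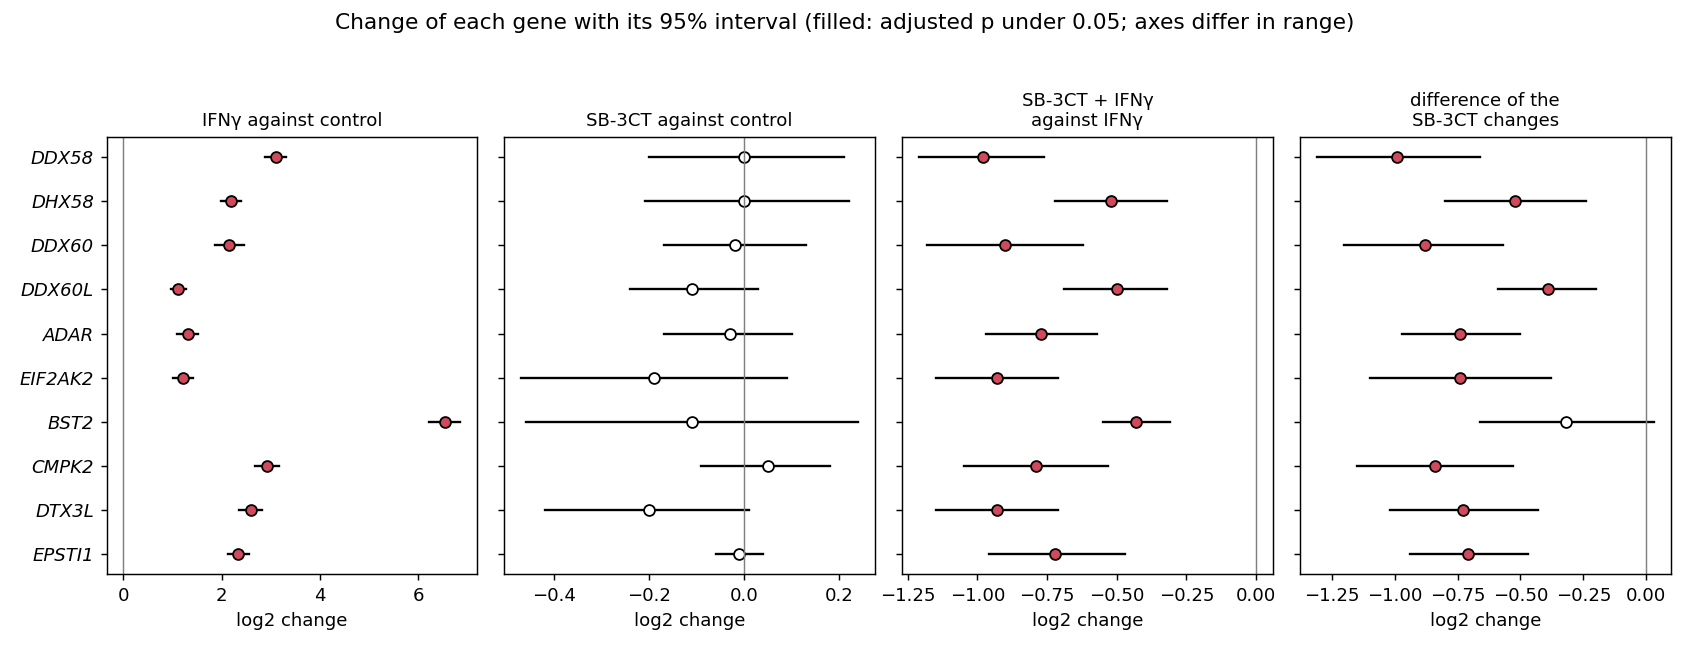
Points are log2 changes of the 10 genes in 3 comparisons of groups and, at the right, the SB-3CT change under IFNγ minus that without it; bars are 95% intervals and filled points have an adjusted p under 0.05. All 10 genes are to the right of 0 with IFNγ, around 0 with SB-3CT alone and to the left of 0 when SB-3CT was added to IFNγ.

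The fall was related to transcript length over all genes. Across 3154 genes of known length averaging 1 FPKM or more, the log2 change with SB-3CT under IFNγ had a Pearson correlation of -0.60 with the logarithm of length; these genes come from the same 6 samples and are not independent replicates. In the longest 20% of genes (5455 to 24709 bases) 72.9% were called lower, with a median of -0.43, and in the shortest 20% (249 to 1650 bases) 6.66% were, with a median of 0.12. ADAR, DDX60, DDX60L, DTX3L and EIF2AK2 belong to the longest class, with canonical transcripts of 5768 to 9975 bases. BST2, with 1001 bases, belongs to the shortest, where its -0.43 stood at percentile 1.74. Each of the 10 genes was below the median of its own length class, DDX60L by the least, at -0.50 and percentile 38.8. With each sample's trend with length removed, the 10 genes were still lower, at -0.23 (DDX60L) to -0.67 (DDX58). Of them 9 were past the threshold, where 585 of 4875 genes were called lower.

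The amount that remained differed between genes. With SB-3CT and IFNγ, the mean FPKM was 44.4% ± 4.94 (SE) of that with IFNγ alone for DDX60, 46.7% ± 3.93 for DDX58 and 50.3% ± 4.06 for EIF2AK2. It was 67.0% ± 4.27 for DHX58 and 74.2% ± 1.72 for BST2, and the other genes lay between 50.9% and 58.8%. The ordering changes where the level without IFNγ is taken off. The FPKM gained with IFNγ in the presence of SB-3CT was 25.0% ± 8.53 (SE) of the gain without it for EIF2AK2 and 32.0% ± 4.60 for ADAR, the pair of genes with the highest control levels. For the remaining genes this share ran from 40.3% for DDX60 to 74.1% for BST2. All of these percentages were taken without rescaling of the samples. The wide shift (median -0.20 over genes averaging 1 FPKM or more) and the length trend thus enter them. EIF2AK2 with both agents was 0.28 above control on the deposited scale and 0.64 with the length trend removed. Its share of the gain may thus depend on the scaling, which was not tested.

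**Figure D4:**
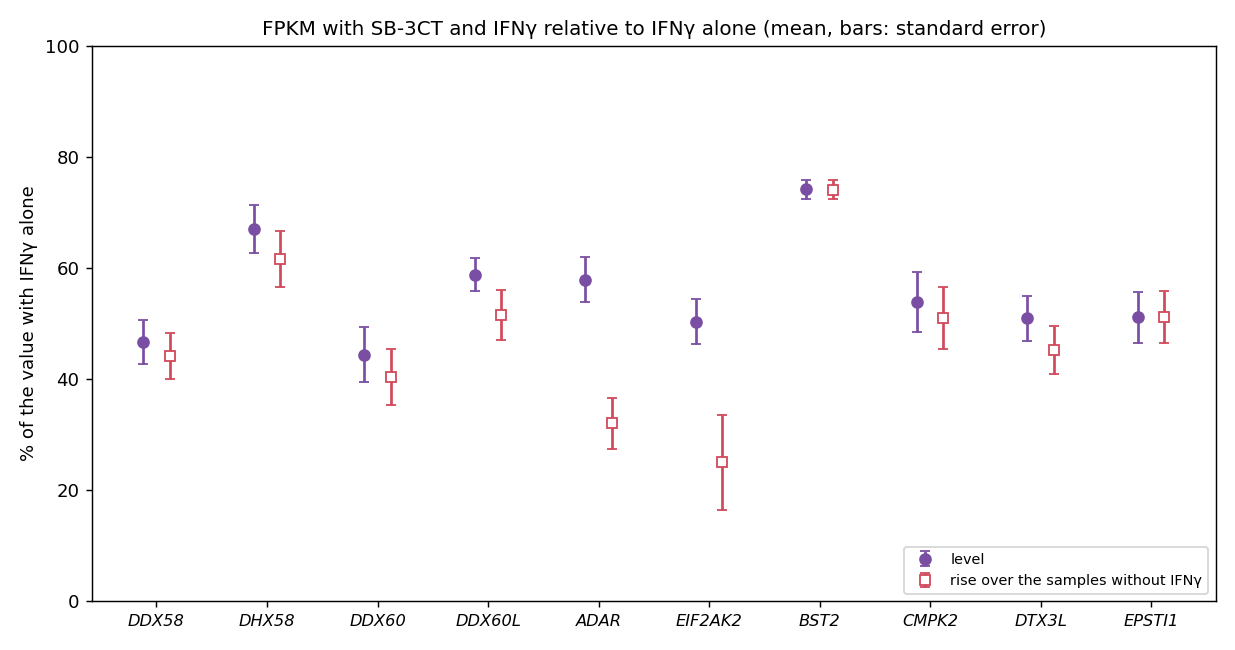
The vertical axis is the FPKM with SB-3CT and IFNγ as a percentage of that with IFNγ alone; filled circles are levels, open squares are the gain over the matching samples without IFNγ, and bars are standard errors. Circles and squares part most for ADAR (57.9% and 32.0%) and EIF2AK2 (50.3% and 25.0%), and BST2 is the highest in both.

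Whether the change with SB-3CT differed in the presence of IFNγ was tested as an interaction term over all 12 samples. The term was below 0 at an adjusted p under 0.05 for 9 of the 10 genes, where 17.6% of all genes were called lower. The wide shift enters the term too, as its median over genes averaging 1 FPKM or more was -0.19. With only those genes tested, 988 of 3177 were called lower. Among the 9 genes the term ran from -0.39 ± 0.09 for DDX60L (SE, adjusted p = 0.0116) to -0.99 ± 0.15 for DDX58 (SE, adjusted p = 0.00374). BST2 was the exception, at -0.32 ± 0.16 (SE, adjusted p = 0.177), and reached -0.47 (adjusted p = 0.0165) without control replicate 3, the highest of the BST2 controls. After quantile normalization the BST2 term also passed, at -0.61 (adjusted p = 0.0375). DHX58 did not pass after median-ratio scaling (-0.33, adjusted p = 0.106), quantile normalization or removal of the length trend. DDX60L did not pass after quantile normalization, removal of the length trend (-0.16, adjusted p = 0.210) or a pseudocount of 0.1 (-0.47, adjusted p = 0.112). EPSTI1 was listed at or near 0 in both groups without IFNγ, so its difference restates its fall under IFNγ. For CMPK2, DDX58, DDX60 and DDX60L, below 1 FPKM in those groups, the log2(FPKM + 1) scale compresses the change without IFNγ.

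IFNγ still raised these genes in the presence of SB-3CT. Against SB-3CT alone all 10 were higher, where 7.85% of all genes were called higher, and against control all 10 were higher, where 9.84% of all genes were. For EIF2AK2 both calls depended on the fit, as given above. The rises over SB-3CT alone ran from 0.47 for EIF2AK2 to 6.23 ± 0.08 for BST2 (SE, adjusted p = 5.09e-07), with 2.12 ± 0.11 for DDX58 (SE, adjusted p = 0.000132) and 0.58 ± 0.05 for ADAR (SE, adjusted p = 0.000917). These comparisons share the combination samples with the one before, and the values are given side by side for that reason.

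The order of the levels also shifted. In the controls ADAR was the highest at 29.5 ± 0.703 FPKM (SD, n = 3), then EIF2AK2 at 9.47 ± 0.341, DTX3L at 5.60 ± 0.163, BST2 at 2.83 ± 0.744 and DHX58 at 1.37 ± 0.207. DDX58, DDX60L and CMPK2 followed, with overlapping samples and means of 0.532 to 0.607, then DDX60 at 0.393 ± 0.112, which overlapped CMPK2, and EPSTI1 near 0. With IFNγ BST2 led at 353 ± 7.91 FPKM (SD, n = 3), followed by ADAR at 75.2 ± 9.02, DTX3L at 38.9 ± 5.07 and EIF2AK2 at 23.3 ± 2.61. Below them DDX58 (12.9 ± 1.16), CMPK2 (10.7 ± 1.37) and DHX58 (9.81 ± 0.352) formed a run in which neighbours overlapped, and so did DDX60 (5.23 ± 0.868) and EPSTI1 (4.12 ± 0.599). DDX60L was the lowest at 2.47 ± 0.160. With both agents the first 3 places were the same, and the 3 EIF2AK2 samples (10.6 to 12.5 FPKM) still lay above those of DHX58 (5.78 to 7.01).

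Other genes of the interferon response gave a mixed picture. Of 45 such genes listed, 37 were in the table, and with IFNγ 27 were higher, 2 lower and 8 not called, with a median change of 1.12 against -0.02 over all genes. CXCL10, a chemokine that attracts T cells, rose most, by 6.35, and CDKN1A, which encodes the cell-cycle inhibitor p21, fell by 0.52. When SB-3CT was added to IFNγ, 3 of the 37 were higher and 18 lower, where 31.5% of all genes were called lower. The median of the 37 was -0.25, against -0.09 over all genes and -0.20 over genes averaging 1 FPKM or more. With only genes averaging 1 FPKM or more tested, 1493 of 3145 were called lower. After median-ratio scaling 8 of the 37 were higher and 11 lower, where 16.5% of all genes were called lower. The largest of these rises was that of the monocyte chemokine gene CCL2 (0.55, adjusted p = 0.00706) and the largest fall that of FAM46A (-0.89, adjusted p = 0.00207). All 10 RNA sensor and antiviral genes, by contrast, were lower with either scaling, though they and the list were chosen with earlier results in view. CXCL10 itself was higher with SB-3CT and IFNγ (0.44 ± 0.09 SE, adjusted p = 0.00874).

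Of 21 other nucleic acid sensors and cofactors listed, 19 were in the table, and 3 were higher with IFNγ and 0 lower at an adjusted p under 0.05 (limma), where 8.46% of all genes were called higher. Their median change was -0.01, against -0.02 over all genes. AIM2, which senses cytosolic DNA, rose most, by 2.97 ± 0.07 (SE, adjusted p = 3.59e-06), and CYLD and CASP10, named after their values were seen, were the others. The RNA helicase gene DDX3X (0.20, adjusted p = 0.403) did not pass. When SB-3CT was added to IFNγ, 12 of the 19 were lower and 0 higher, where 31.5% of all genes were called lower. The median of the 19 was -0.51, against -0.09 over all genes and -0.20 over genes averaging 1 FPKM or more. With only genes averaging 1 FPKM or more tested, 1493 of 3145 were called lower. After median-ratio scaling 10 of the 19 were lower and 1 higher, where 16.5% of all genes were called lower. DDX3X fell most, by 0.93. With SB-3CT alone 6 of the 19 were lower and 0 higher, where 6.87% of all genes were called lower, and AIM2 fell most (-0.70 ± 0.08 SE, adjusted p = 0.00608). Of the 37 interferon-response genes 2 were higher and 0 lower with SB-3CT alone, where 5.37% of all genes were called higher.

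Relatives of the 10 genes by enzyme activity, such as ADARB1, DICER1, DTX1 to DTX4 and the other eIF2α kinases, numbered 16, all of them in the table. With IFNγ 1 was higher, EIF2AK1 (0.48 ± 0.07 SE, adjusted p = 0.00634), which encodes the haem-regulated kinase, and 1 was lower, DTX1 (-0.34 ± 0.05 SE, adjusted p = 0.00703). Adding SB-3CT to IFNγ left 8 of the 16 lower and 0 higher, where 31.5% of all genes were called lower. The median of the 16 was -0.20, against -0.09 over all genes and also -0.20 over genes averaging 1 FPKM or more. With only genes averaging 1 FPKM or more tested, 1493 of 3145 were called lower, a share near that of the 16. After median-ratio scaling 6 of the 16 were lower and 0 higher, where 16.5% of all genes were called lower. EIF2AK1 fell most, by 0.86. CASP8 belongs to both of the preceding lists, and it did not pass in either comparison.

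Genes with the most similar pattern were sought by the distance between their group means. For each gene the changes of the 3 treated groups from control were compared with those of 3167 other genes averaging 1 FPKM or more, and the root mean square distance on the log2 scale was taken. DDX60L lay nearest to BTN2A2, a butyrophilin gene, at 0.05 and to CYP4V2 at 0.08. DTX3L and EPSTI1 both had ADAP1 as their nearest gene, at 0.13 and 0.10, followed by CIITA (0.31) for DTX3L and CD40 (0.22) for EPSTI1. DHX58 lay nearest to CD40 (0.14) and then to ADAP1 (0.15). CMPK2 and DDX58 were nearest to CIITA, the regulator of MHC class II genes, at 0.19 and 0.29, followed by CSF1 (0.27) for CMPK2 and CEACAM1 (0.29) for DDX58. ADAR was nearest to DENND5A (0.15) and ERAP2 (0.17), EIF2AK2 to APOBEC3D (0.18) and ARNTL2 (0.19), and DDX60 to BTN3A3 (0.16) and CA11 (0.27). BST2 had no close neighbour, with CXCL10 at 0.41 and C1S at 1.05. All of these distances rest on the same 12 samples and share the controls.

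As for the samples as a whole, the depth relative to the mean of the controls, read from the steps that single reads leave in low FPKM values, ran from 87.2% to 150.1%, while absolute depth could not be derived and counting errors are therefore left out. Of 7 genes listed as melanoma and melanocyte markers, 5 reached 1 FPKM in every group. CAV1, CSPG4 and AXL were the most abundant, at 69.7, 48.5 and 41.2 FPKM in controls, and make up most of the sum below. That sum is therefore not a measure of melanoma identity. The pigment gene DCT (at most 0.384 FPKM) and ABCB5 (at most 0.0246) did not. The summed level of the 7 was 160 to 174 FPKM with IFNγ and 122 to 126 FPKM with SB-3CT and IFNγ, so it too was lower in that comparison; it was 165 to 169 FPKM in controls and 152 to 167 FPKM under SB-3CT, and its part in the result was not tested. Of 7 leukocyte markers in the table, with sums of 20.1 to 32.0 FPKM, only CD68 reached 1 FPKM, and CD3D, CD4, CD8A and CD79A were at or below 0.306 FPKM in all samples. CLDN4 alone of 5 epithelial markers (sums of 7.66 to 11.8 FPKM) reached 1 FPKM, and the 3 endothelial markers summed to at most 0.312 FPKM.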

How the data were processed

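Total RNA of 12 A375 samples was sequenced on an Illumina HiSeq instrument. According to the submitters' processing notes, HISAT2 2.0.5 (genome hg19) and StringTie 1.3.3 were used by the authors to align reads and compute FPKM. Deposited values reach 12.16 and match log2(FPKM + 1), so no further logarithm was taken, although the tests had been planned for FPKM. Column names gave the samples, and 0 columns stayed unused.

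Each comparison used limma 3.58.1 under R 4.3.3 (lmFit, then eBayes with trend, unpaired, 3 + 3 samples), and the difference of the SB-3CT changes in a fit over 12 samples. P-values were adjusted by the Benjamini-Hochberg method over 4918 genes, with a threshold of 0.05. Functions were tested on simulated data. Folds and percentages were taken on mean FPKM, with standard errors by error propagation. The 10 genes, the lists and the motifs were chosen with earlier results of these data known. All 10 genes are named, with the largest called rise and fall of each list and the 2 nearest genes of each.

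Positions and lengths came from GENCODE release 44 mapped to hg19 (4458 symbols matched directly, 417 by an older symbol), and promoters from RefSeq (GRCh38.p14). Alternatives were a pseudocount of 0.1, only genes averaging 1 FPKM or more, median-ratio scaling, quantile normalization, removal of each sample's length trend (loess, span 0.5), all 4 groups in one fit, eBayes without trend or robust, a replicate block, and each sample left out.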

Additional observations from a re-analysis of the deposited data

Results flagged for a closer look

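For 9 of the 10 genes the change with SB-3CT differed between cells with and without IFNγ, by the term for that difference in the limma fit over all 12 samples (adjusted p between 0.00358 and 0.0170). For this term 17.6% of all genes were called lower. The median of the term over genes averaging 1 FPKM or more was -0.19, and with only those genes tested 988 of 3177 were called lower. Expressed as the log2 change under IFNγ minus that without, the difference was -0.99 for DDX58, -0.52 for DHX58, -0.88 for DDX60 and -0.39 for DDX60L. It was -0.74 for ADAR and -0.74 for EIF2AK2, -0.84 for CMPK2, -0.73 for DTX3L and -0.71 for EPSTI1. EPSTI1 was listed at or near 0 without IFNγ, so its value restates its fall under IFNγ. CMPK2, DDX58, DDX60 and DDX60L were below 1 FPKM without IFNγ, where the log2(FPKM + 1) scale compresses a change. The median-ratio scaling moved the median change under IFNγ, over genes averaging 1 FPKM or more, from -0.20 to 0.00. After it 8 of the 10 passed for the difference, where 275 of 4918 genes were called lower.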

How the results depend on the processing

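All 10 genes kept their rise with IFNγ past the threshold in each of the 15 alternatives, in which 271 to 580 genes of the table were called higher. Of 809 alternative values for single genes, 788 stayed on the same side of the threshold or, where not called, stayed uncalled, 18 lost the threshold and 3 gained it; for both agents against control these count EIF2AK2, and no other gene's call changed there. With SB-3CT alone the number of genes called was 0 to 1 when 1 sample was left out, the 1 being EIF2AK2 without SB-3CT replicate 1 (-0.33, adjusted p = 0.0273); the cause was not tested. Without SB-3CT replicate 1, 912 genes of the table were called in place of 602. Without any 1 of the other samples of that comparison, between 73 and 88 were. Under IFNγ, 9 of 10 were lower after quantile normalization (not DHX58) and after removal of the length trend (not DDX60L), and 10 in the other alternatives. Of all genes, 713 of 4918 were called lower after quantile normalization and 585 of 4875 after removal of the length trend. In the other alternatives 811 to 1695 genes were. For the difference of the SB-3CT changes the count was 7 after removal of the length trend, 8 after median-ratio scaling, quantile normalization or a pseudocount of 0.1, and 9 to 10 when 1 sample was left out. Genes of the table called lower for it numbered 228 of 4875 after removal of the length trend. They numbered 275 after median-ratio scaling, 345 after quantile normalization, 847 with the pseudocount of 0.1 and 517 to 1178 with 1 sample left out. With both agents against control the count was 9 to 10 when 1 sample was left out and 9 with all 4 groups in one fit, EIF2AK2 being the gene lost. Of the genes of the table, 399 to 437 were called higher with 1 sample left out and 456 with all 4 groups in one fit. For both agents against SB-3CT alone the count was 10 without SB-3CT replicate 1 and 9 without any 1 other sample. EIF2AK2 was the gene lost, and 303 to 340 genes of the table were called higher in these fits. With the replicate number as a block, 9 of 10 genes were higher with both agents than with SB-3CT alone, where 284 of 4918 genes were called higher. EIF2AK2 had an adjusted p of 0.0912 there (limma), and no other call among the 10 genes changed. The numbers share no stated culture or day, and deviations of same-numbered samples correlated at -0.39 to 0.17, so they were not taken as pairs; over all genes the block gave 126 higher and 133 lower with SB-3CT alone, in place of 264 and 338. Absolute depth is unknown, which limits what can be said of genes listed near 0.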
